A study of Mus musculus with 2 samples.

Results

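Interferon-stimulated genes were examined in the regenerating liver of miR-182-5pKO (KO) and wild-type (WT) mice. The members were 37 gene symbols fixed as a list, and they were found by symbol on 38 of the 34745 gene rows of the count table, because *Gbp6* stands on 2 rows. Of these rows, 28 belong to genes typical of the type I interferon response and 9 to GTPases typical of the interferon gamma response. The remaining row is *Irf1*, a transcription factor of the interferon gamma response. The KO mice were heterozygous and had lost a single allele of the miR-182-5p gene, so they retained the other copy. All mice were males of 8 to 10 weeks, and 70% of the liver was removed from both genotypes by partial hepatectomy (PH), with the liver taken on the third day. RNA came from whole liver, with 1 library per genotype, and the number of mice behind each library is not given in the sources used here. *Mir182* is not among the listed genes, and no check of the genotypes on the targeted gene was made.

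Interferons are secreted proteins that alert cells to viruses and other pathogens. Type I interferons bind the Ifnar1 and Ifnar2 receptor chains, and the kinases Jak1 and Tyk2 then activate a complex named ISGF3, which holds Stat2 and Irf9 and binds the interferon-stimulated response element (ISRE). Interferon gamma binds Ifngr1 and Ifngr2 and acts through Jak1 and Jak2 on genes that carry the gamma-activated site (GAS). In liver, hepatocytes, Kupffer cells and endothelial cells all carry these receptors, and the induced genes encode sensors of foreign RNA, proteins that block viral replication, GTPases that attack the vacuoles of intracellular pathogens, and factors that amplify or end the response.

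The sequence of miR-182-5p and the promoters of 7 members are shown first. The miRNA defines the genotype, and the promoters carry the element through which the members are known to respond. These 7 were picked as examples of both groups whose matches lie close to the start. The mature miRNA is printed with its seed (bases 2 to 8) in capitals and lies at chr6:30165962-30165986 on the minus strand of GRCm38.p6 (RefSeq).
mmu-miR-182-5p: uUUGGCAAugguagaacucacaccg
The promoters are the 120 bases before the annotated start, read 5′ to 3′ on the strand of the gene, from RefSeq on GRCm38.p6. Capitals mark every match to the ISRE letters GAAANNGAAA or their reverse complement TTTCNNTTTC, and adjoining matches run together. *Isg15* lies at chr4:156200819-156200938 on the minus strand, *Ifit1* at chr19:34640769-34640888 on the plus strand, and *Oas1a* at chr5:120907526-120907645 on the minus strand. *Gbp2* lies at chr3:142620543-142620662 and *Gbp3* at chr3:142559924-142560043, both on the plus strand. *Igtp* lies at chr11:58199436-58199555 on the plus strand and *Irgm1* at chr11:48871421-48871540 on the minus strand.
Isg15: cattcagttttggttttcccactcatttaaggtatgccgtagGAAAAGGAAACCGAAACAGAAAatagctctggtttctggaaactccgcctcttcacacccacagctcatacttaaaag
Ifit1: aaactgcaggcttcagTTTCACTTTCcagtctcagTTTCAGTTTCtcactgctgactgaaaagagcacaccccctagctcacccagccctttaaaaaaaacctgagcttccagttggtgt
Oas1a: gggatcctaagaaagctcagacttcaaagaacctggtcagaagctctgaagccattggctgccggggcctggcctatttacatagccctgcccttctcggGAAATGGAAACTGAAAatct
Gbp2: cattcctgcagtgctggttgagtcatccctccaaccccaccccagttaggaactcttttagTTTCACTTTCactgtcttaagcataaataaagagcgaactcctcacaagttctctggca
Gbp3: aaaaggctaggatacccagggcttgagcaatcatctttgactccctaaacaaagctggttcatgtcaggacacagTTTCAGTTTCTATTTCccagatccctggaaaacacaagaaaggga
Igtp: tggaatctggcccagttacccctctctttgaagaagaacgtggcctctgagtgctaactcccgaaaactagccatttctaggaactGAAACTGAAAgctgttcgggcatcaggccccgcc
Irgm1: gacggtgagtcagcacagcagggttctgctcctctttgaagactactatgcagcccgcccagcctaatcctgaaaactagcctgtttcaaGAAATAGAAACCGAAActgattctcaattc

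A promoter window of 300 bases (250 before and 50 after the start) was found for 27 of the 37 members, and not for *Usp18*, *Rtp4*, *Parp14*, *Zbp1*, *Iigp1*, *Mx1*, *Mx2*, *Parp9*, *Dhx58* and *Gbp6*. The ISRE letters were present in 15 of these 27 genes (55.6%), against 3.99% of the 27025 mouse genes with such a window. Among type I members 10 of 20 genes held them, and among the GTPases 5 of 6 genes (83.3%). The 6 GTPases are *Gbp2*, *Gbp3*, *Gbp7*, *Irgm1*, *Igtp* and *Ifi47*, and *Ifi47* had no match. The GAS letters TTCNNNGAA, which read the same on both strands, were present in 7 of 27 genes (25.9%), against 9.55% of all genes. *Bst2* was the member in which an ISRE match overlapped a GAS match. The first bases of the *Isg15* matches lay 78, 72 and 66 bases before the start, so that 3 matches overlap, and those of *Ifit1* lay 104 and 85 bases before it as 2 separate matches. *Irf7*, *Oasl2*, *Ifi44*, *Xaf1* and *Ifit2* held no ISRE match in this window, which says only that these letters are not in it. The letters were held by 9 of the 14 genes with a window that were called higher between the libraries, by 5 of the 12 called neither and by *Ddx58*, the member called lower, where the match began 3 bases after the start.

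The 2 libraries held 13247497 (KO) and 13163348 (WT) counts. The 13 protein-coding mitochondrial genes made up 51.7% of KO counts and 31.0% of WT counts. They are the genes left out in results without mitochondrial genes. Because of these shares, library sizes were scaled by TMM, a method that takes the bulk of genes as unchanged. On this scale the 13561 tested genes (10 or more counts in the libraries together) had a median log2 fold change (KO over WT) of 0.00, and on total counts it was −0.60. A gene with equal counts in both libraries is therefore at about 0.60 here, as for *Trim30a*, which had 36 counts in each library and a log2 fold change of 0.58. For each gene an exact binomial test (two-sided) set the KO reads against the share that the scaled library sizes predict, and p-values were adjusted by Benjamini-Hochberg over every tested gene. A gene was called higher or lower at an adjusted p below 0.05 and a change of at least 2-fold. With 1 library per genotype a p-value speaks of these libraries, not of the genotypes, no value has a replicate check, and the 95% intervals given with fold changes cover counting error only. Pairs of counts are given as KO against WT, and a value in parentheses after them is the TMM-scaled log2 fold change, with its interval where a range follows.

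Most members stood higher in the KO library. They lie on 14 chromosomes, and in the coordinates of the authors' table, which match GENCODE M21 (GRCm38) for 32 of the member rows, the Ifit genes form a cluster on chromosome 19, with *Ifit2* at chr19:34550694-34576419 and *Ifit1* at chr19:34640871-34650009. *Irf7* lies at chr7:141262706-141266481, *Oasl2* at chr5:114896936-114912234 and *Ddx58* at chr4:40203773-40239828. Of the 38 rows, all of which were tested, 18 (47.4%) were called higher, 1 was called lower and 19 were called neither, while 7.97% of all tested genes were called higher and 8.32% lower. The log2 fold change was above 0 for 34 of the 38 rows, and the median over the members was 0.97. On total counts 8 rows were called higher (*Gbp2*, *Gbp3*, *Ifi44*, *Ifit1*, *Ifit2*, *Irf7*, *Mx1* and *Oasl2*) and 2 lower (*Ddx58* and *Ifih1*), against 3.47% and 25.0% of all genes, and the median was 0.37. Direction was kept on both scales for the 18 rows called higher, and 27 rows were above 0 on total counts.

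**Figure D1:**
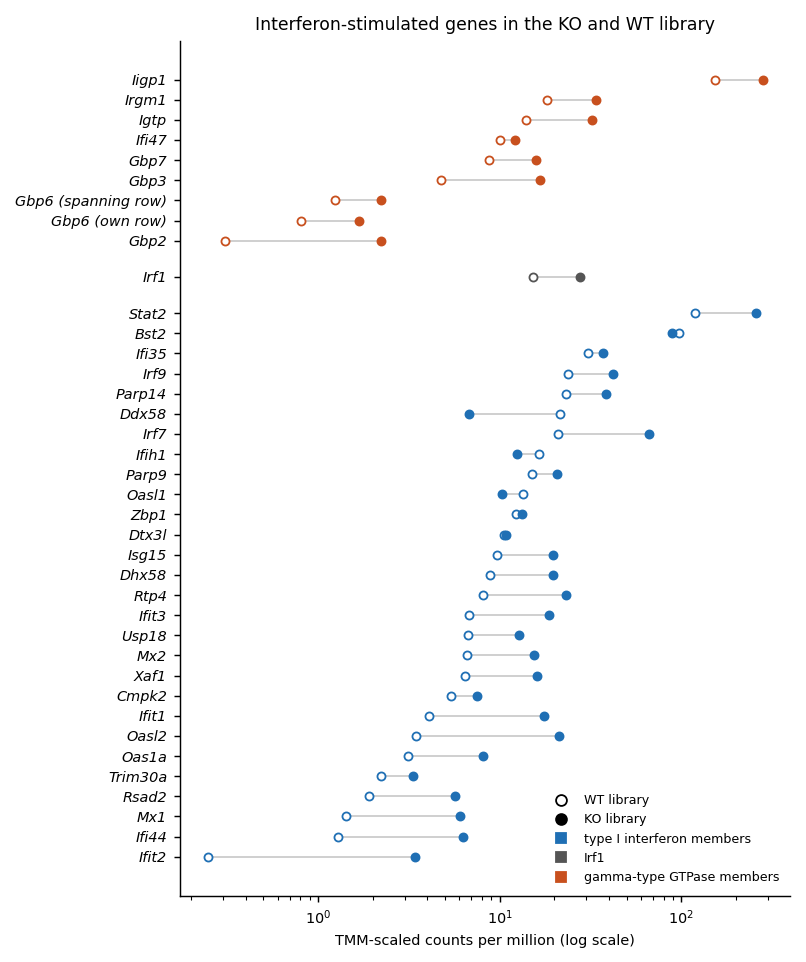
Level of each of the 38 member rows in the KO library (filled points) and the WT library (open points), in TMM-scaled CPM on a log axis, with 1 value per library and type I members, *Irf1* and GTPases apart. *Iigp1* is the highest row at 281 (KO) and 153 (WT), *Ifit2* is the lowest WT point at 0.247, and the KO point lies to the right of the WT point for 34 of the 38 rows.

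**Figure D2:**
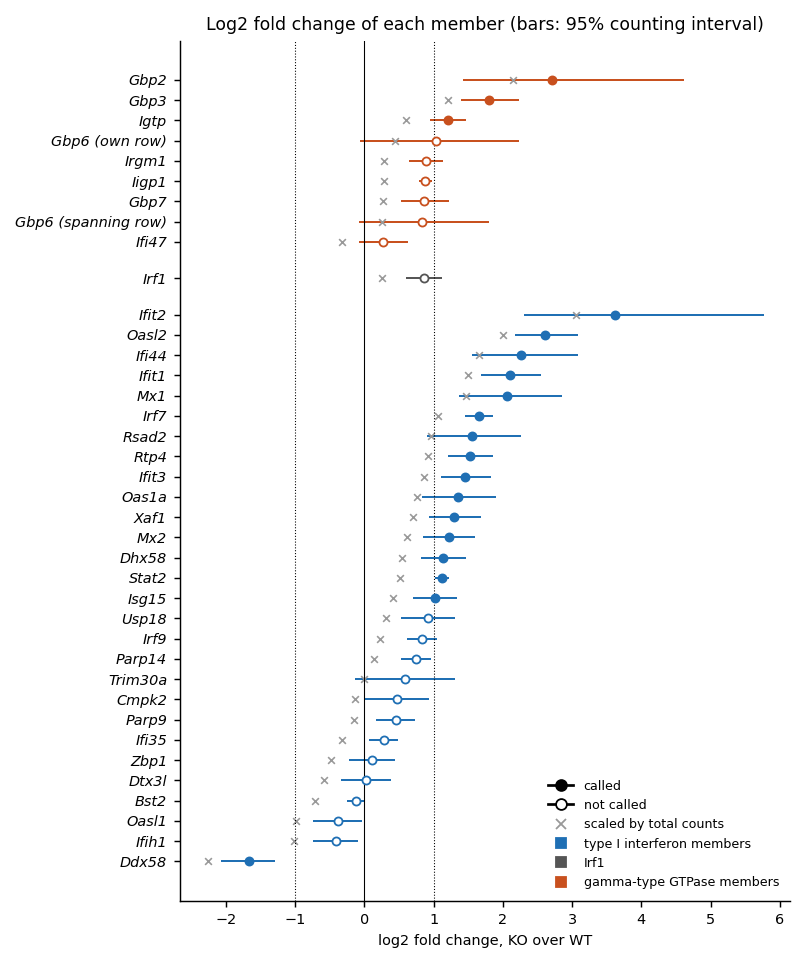
Log2 fold change (KO over WT) of each of the 38 member rows, with 95% counting intervals as bars, after TMM scaling, while crosses mark the value on total counts. Filled points are the 18 rows called higher and the 1 called lower, open points are the 19 called neither, and dotted lines stand at a 2-fold change in each direction. *Ifit2* lies farthest to the right at 3.62 and *Ddx58* farthest to the left at −1.66.

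**Figure D3:**
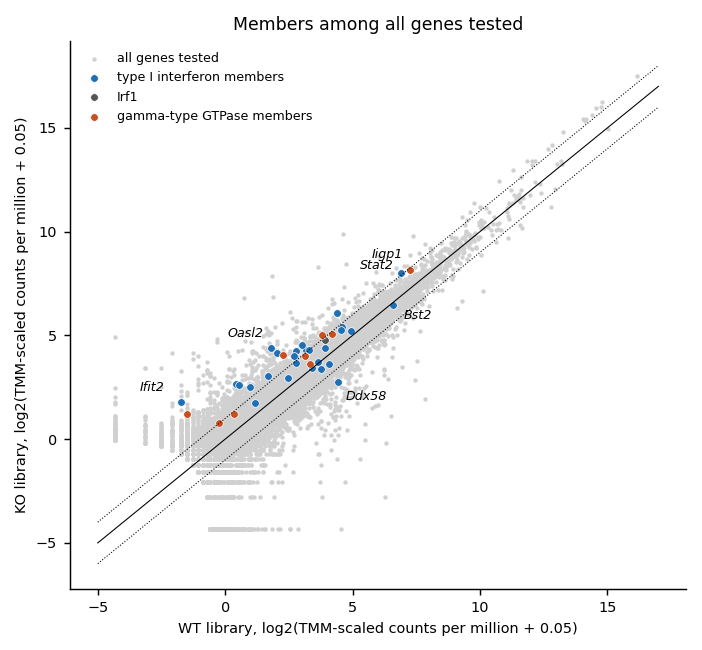
Level of each of the 13561 tested genes (grey) in the WT library (horizontal axis) and the KO library (vertical axis), in log2 of TMM-scaled CPM plus 0.05, with the 38 member rows in colour. The solid line marks equal levels and the dotted lines a 2-fold difference, and most members lie above the solid line, with *Ddx58* below the lower dotted line.

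Among the factors that carry the interferon signal into the nucleus, *Stat2* and *Irf7* were called higher. *Stat2*, a subunit of ISGF3, had 2781 KO counts and 1931 WT counts, and its log2 fold change was 1.12 (1.03 to 1.20). *Irf9*, the DNA-binding subunit of ISGF3, had 454 against 385 counts (0.83) and was not called. *Irf7*, which drives the interferon alpha genes and so amplifies the response, was called higher, at 717 against 342 counts (1.66, 1.47 to 1.85), with an adjusted p of 8.09e-73 by the exact binomial test. *Irf1*, the factor induced by interferon gamma, had 298 against 247 counts, and its log2 fold change of 0.86 (0.62 to 1.11) was below the 2-fold limit. *Usp18*, a protease that removes Isg15 from proteins and damps signalling at Ifnar2, had 137 against 109 counts (0.92, 0.55 to 1.30) and was not called.

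The Ifit proteins bind viral RNA and block its translation. All 3 members were called higher, against 7.97% of all tested genes. *Ifit2* had 37 KO counts and 4 WT counts, a log2 fold change of 3.62 (2.32 to 5.75), which was the largest among the members and rests on very few WT reads. *Ifit1* had 189 against 66 counts (2.10, 1.70 to 2.54) and *Ifit3* 201 against 110 (1.46, 1.12 to 1.81). The row of *Ifit3b*, which is close in sequence to *Ifit3*, had 25 against 12 counts (1.60) and was called higher as well.

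The Oas proteins make the second messenger that activates RNase L, and the members differed among themselves. *Oasl2*, a protein related to this family, was called higher, with 228 KO counts and 56 WT counts (2.61, 2.19 to 3.07). *Oas1a* was also called higher, at 87 against 51 counts (1.35, 0.85 to 1.89). *Oasl1*, known to repress the translation of *Irf7*, had 111 against 218 counts and a log2 fold change of −0.38 with an adjusted p of 0.0506 by the exact binomial test, and it was not called. The rows of the Oas family that are not members are *Oas1b*, *Oas1c*, *Oas1g*, *Oas2* and *Oas3*. Over all 8 tested Oas rows, 3 were called higher (*Oasl2*, *Oas1a* and *Oas3*) and none lower, against 7.97% and 8.32% of all tested genes. The median of these rows was 0.87. *Oas2* was at 0.13 with 117 against 161 counts (−0.47 on total counts), and *Oas3* at 1.77 with 35 against 15.

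The Mx GTPases trap viral nucleocapsids, and many inbred laboratory mouse strains carry defective copies of *Mx1*. *Mx1* had 65 KO counts and 23 WT counts (2.06, 1.39 to 2.84), and *Mx2* had 166 against 107 (1.22, 0.87 to 1.59). Both were called higher. *Rsad2* (viperin), an enzyme that makes a chain-terminating nucleotide, was called higher at 61 against 31 counts (1.55, 0.92 to 2.24). *Cmpk2*, a nucleotide kinase encoded beside *Rsad2*, was not called at 81 against 88 counts (0.47). *Isg15*, the ubiquitin-like modifier that is attached to proteins during the response, had 211 against 157 counts and a log2 fold change of 1.02 (0.71 to 1.33), just above the 2-fold limit. Its call was lost on total counts, with or without mitochondrial genes, and with a prior count of 5.

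**Figure D4:**
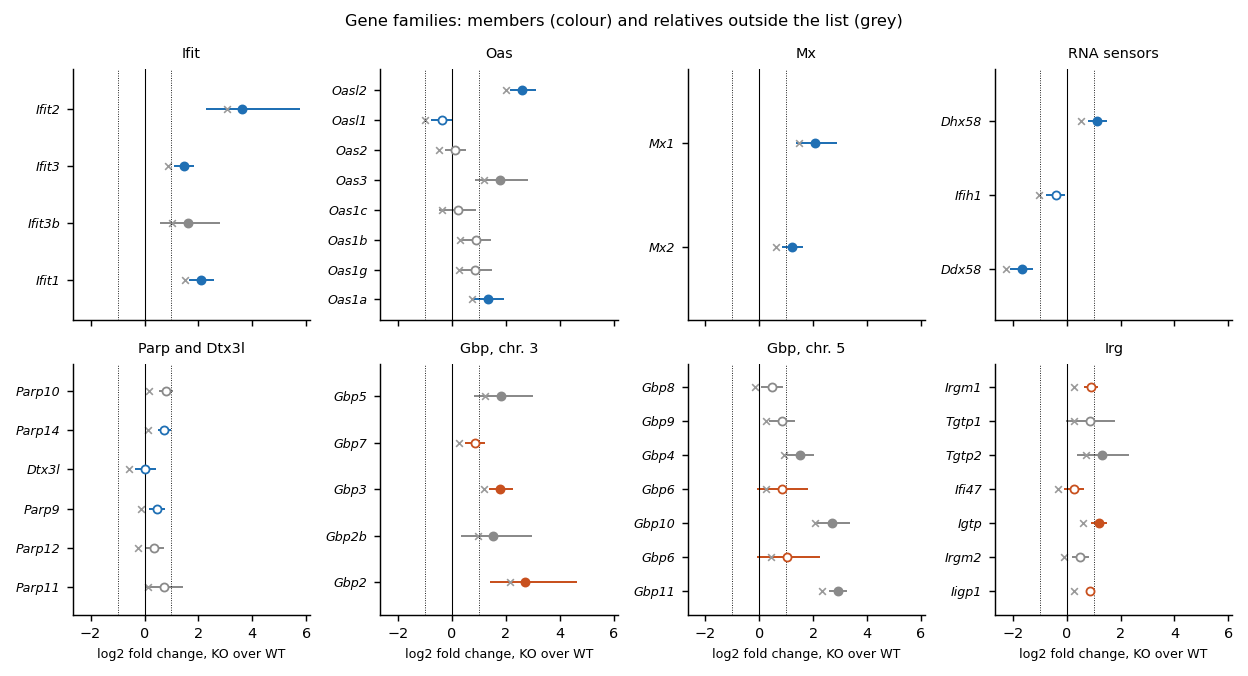
Log2 fold changes (KO over WT, with 95% counting intervals) of the members and their relatives in each gene family, with members in colour and relatives outside the list in grey. Filled points were called, open points were not, crosses mark values on total counts, and *Gbp6* appears once for each of its 2 rows. All 4 Ifit rows were called higher, while none of the 6 rows of the Parp and Dtx3l group was called. Over all tested genes 7.97% were called higher and 8.32% lower.

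The 3 cytosolic RNA sensors differed in direction. *Ddx58*, which encodes RIG-I, was the member called lower, at 73 KO counts and 350 WT counts (−1.66, −2.05 to −1.30), with an adjusted p of 2.02e-22 by the exact binomial test. *Ifih1*, which encodes Mda5, had 134 against 269 counts, and its log2 fold change of −0.41 (−0.72 to −0.11) did not reach 2-fold after TMM scaling, although it was called lower on total counts at −1.01. *Dhx58*, which encodes Lgp2 and modulates the other two sensors, was called higher at 211 against 144 counts (1.14, 0.83 to 1.46). *Zbp1*, a sensor of left-handed nucleic acids that triggers necroptosis, had 143 against 199 counts (0.12) and was not called.

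The remaining type I members have other roles. *Ifi44* was called higher with 68 KO counts and 21 WT counts (2.26, 1.56 to 3.07). *Rtp4*, a chaperone of cell surface receptors, was called higher at 251 against 131 counts (1.53, 1.22 to 1.85), and so was *Xaf1*, a partner of the apoptosis inhibitor Xiap, at 172 against 105 (1.30, 0.95 to 1.67). The ADP-ribosylation group stayed below the limit: *Parp14* had 417 against 376 counts (0.74), *Parp9* had 224 against 246 (0.46) and *Dtx3l*, the ubiquitin ligase that pairs with Parp9, had 116 against 172 (0.02). *Ifi35* had 400 against 497 counts (0.28) and *Trim30a* 36 against 36 (0.58), and neither was called. *Bst2* (tetherin), which holds budding virions at the cell surface, had 962 against 1571 counts, and its log2 fold change of −0.12 (−0.23 to 0.00) was not called. Among the 28 type I rows in all, 15 (53.6%) were called higher, 1 (3.57%) lower and 12 neither. Of all tested genes 7.97% were called higher and 8.32% lower. The median of the type I rows was 1.07 on the TMM scale and 0.47 on total counts.

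The GTPases typical of the interferon gamma response are the guanylate-binding proteins (Gbp) and the immunity-related GTPases (Irg), which attack the vacuoles of intracellular parasites and bacteria. Of the 9 rows, 3 (33.3%) were called higher and none lower, against 7.97% and 8.32% of all tested genes. All 9 were above 0 after TMM scaling, with a median of 0.89. On total counts 2 rows were called higher and none lower, against 3.47% and 25.0% of all genes. On that scale *Ifi47* was below 0, and the median was 0.29. *Gbp2* had 24 KO counts and 5 WT counts (2.72, 1.44 to 4.60), *Gbp3* had 179 against 77 (1.80, 1.42 to 2.21), and *Igtp*, an Irg protein that guards the membranes of the cell itself, had 347 against 227 (1.20, 0.96 to 1.45). These are the 3 that were called. *Iigp1*, an effector Irg protein, was the most abundant of them with 3022 against 2476 counts (0.88, 0.80 to 0.96), and its interval lay below the 2-fold limit. *Irgm1*, a regulator of the effector Irg proteins, had 365 against 297 counts (0.89), *Gbp7* 171 against 141 (0.87) and *Ifi47* 130 against 162 (0.27), and none of these was called. The 2 rows of *Gbp6* had 18 against 13 counts (1.03) and 24 against 20 counts (0.84), and neither passed the test. The second spans *Gbp10* as well, and GENCODE M21 names it *Gm43302* rather than *Gbp6*. The medians of the interval bounds ran from 0.77 to 1.31 for the type I members and from 0.66 to 1.45 for the GTPases, and the difference between the medians was not tested.

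Relatives outside the list differed by locus and gene. *Gbp11*, with 562 KO counts and 112 WT counts (2.91), and *Gbp10*, with 134 against 31 (2.68), were called higher, and *Gbp4* was called at 113 against 59 (1.52). *Gbp8* (0.46, and −0.14 on total counts) and *Gbp9* (0.84) were not called. Of the 5 Gbp rows on chromosome 3, which include *Gbp2* and *Gbp3*, 4 were called higher, and of the 7 on chromosome 5, 3 were. The share called higher over all tested genes was 7.97%. Of the 7 Irg rows, *Igtp* and *Tgtp2* (1.30) were called higher, and *Irgm2*, a neighbour of *Igtp*, had 212 against 226 counts (0.50) and was not.

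Levels between genes were compared per length, in FPKM. In the WT library *Bst2* was the highest member at 156 FPKM, followed by *Iigp1* at 60.3, *Stat2* at 32.7, *Isg15* at 15.8 and *Ifi35* at 12.6. The median WT level of the 28 type I rows was 2.42 FPKM and that of the 9 GTPase rows 1.64. *Ifit2* was the lowest at 0.0696 FPKM. The next rows were *Gbp6* on its own row at 0.111, which was not called, *Gbp2* at 0.134 and *Ifi44* at 0.212, and all of these carry few WT reads.

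Pathway genes outside the list were examined by role. Of the 21 ligand genes in the table, 20 had 0 counts in both libraries, which allows up to 3 counts in each, and *Ifng*, the interferon gamma gene, had 0 KO counts and 3 WT counts. No ligand was tested. Of the 6 receptor chains tested, none was called on the TMM scale: *Ifnar1* was at 0.32, *Ifnar2* at −0.01, *Ifngr1* at −0.80, *Ifngr2* at −0.14, *Ifnlr1* at −0.53 and *Il10rb* at 0.20. On total counts *Ifngr1*, with 69 against 182 counts, was called lower at −1.40. The kinases *Jak1* (0.15), *Jak2* (0.70) and *Tyk2* (0.75), which pass on the receptor signal, and the transcription factor *Stat3* (0.05) were not called either. On total counts all 6 receptor chains were below 0, as were *Jak1* and *Stat3*.

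Sensors, adaptors and factors of the pathway followed. *Irf5*, a factor of the Toll-like receptor pathways, was called higher with 151 KO counts and 30 WT counts (2.90, 2.35 to 3.54). *Ikbke*, a kinase of the interferon-inducing pathway, was called higher at 380 against 209 (1.45), as were *Tlr3*, the endosomal receptor for double-stranded RNA, at 71 against 44 (1.27) and *Tmem173*, which encodes Sting, at 41 against 29 (1.08). These 4 were 25.0% of the 16 tested genes, against 7.97% called higher over all tested genes. The other 12 of the 16 were called neither. These include *Irf3* (0.35) and *Irf2* (0.14), which with *Ikbke* were the 3 most abundant, and also *Irf8* (0.97), *Myd88* (0.58), *Mavs* (−0.17) and *Tbk1* (−0.24). On total counts *Irf5* was the 1 gene of the 16 called higher (2.30), against 3.47% of all genes. The calls of *Ikbke* (0.85), *Tlr3* (0.675) and *Tmem173* (0.48) were lost. On that scale 10 of the 16 were below 0, with *Irf3*, *Irf2* and *Myd88* among them.

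Among the 10 inhibitors tested, 5 were called higher and none lower, where 7.97% and 8.32% of all tested genes were. *Adar*, the RNA-editing enzyme that keeps the cell's own RNA from being sensed, had 532 KO counts and 142 WT counts (2.49, 2.23 to 2.78), and *Ptpn1*, a phosphatase of Jak2 and Tyk2, had 170 against 61 (2.06). *Socs3*, a feedback inhibitor of cytokine signalling, was called at 305 against 228 (1.01), just above the 2-fold limit, and the call was lost on total counts (0.41). *Ptpn11*, a phosphatase that was among the most abundant of these genes, was at −0.37 and was not called. *Trex1*, a DNase that removes cytosolic DNA, had 37 against 0 counts. *Socs1*, a feedback inhibitor of the interferon receptors, had 10 against 0 counts. With 3 counts taken as the limit in the WT library and the KO counts taken as read, *Trex1* was 18.6-fold and *Socs1* 5.03-fold higher. The counting intervals, which also cover error in the KO counts, began lower, at log2 fold changes of 3.85 (*Trex1*) and 1.76 (*Socs1*). Over all 37 tested pathway genes 9 (24.3%) were called higher and none lower, against the same 7.97% and 8.32%, and the median was 0.35. On total counts 5 were called higher and 1 lower, against 3.47% and 25.0% of all genes, and the median turned to −0.25.

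**Figure D5:**
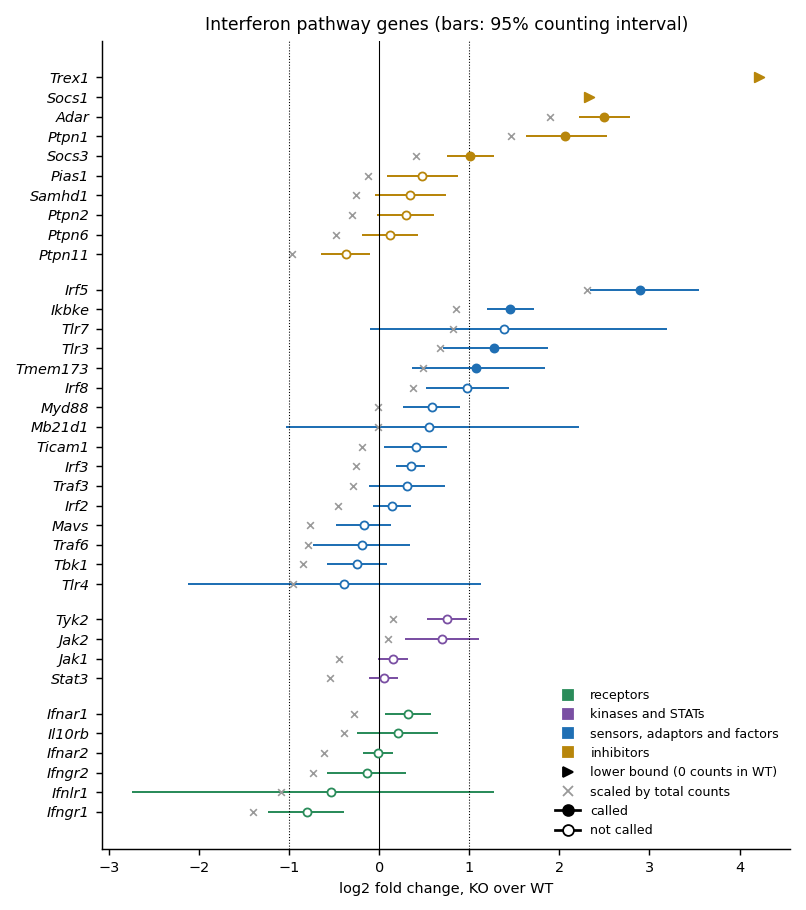
Log2 fold changes (KO over WT, with 95% counting intervals) of 36 interferon pathway genes, grouped by role. Filled points were called, open points were not, crosses mark values on total counts, and triangles mark the lower bounds for *Trex1* and *Socs1*. After TMM scaling no interferon receptor chain and none of *Jak1*, *Jak2*, *Tyk2* and *Stat3* was called. Of the 10 inhibitors 5 were called higher, against 7.97% of all tested genes.

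A further list of 59 interferon-stimulated genes was compared beside the members, and 54 were tested. Of these 22 (40.7%) were called higher and 1 (1.85%) lower, against 7.97% and 8.32% of all tested genes. The log2 fold change was above 0 for 45, and the median was 0.84. *Ifi203*, a member of the HIN200 family, had 389 KO counts and 110 WT counts (2.41), and *Gvin1*, a very large interferon-induced GTPase, had 46 against 12 (2.47). *Ly6e*, a surface protein that limits viral entry, was the 1 called lower, at 607 against 1933 counts (−1.08). *Ifitm3*, which blocks viral fusion, was the most abundant with 5067 against 7728 counts and was not called (−0.02), and *Lgals9* (−0.05) and *Ifitm2* (−0.80), the next in abundance, were not called either. *Eif2ak2*, the kinase PKR, was called higher at 284 against 191 (1.16), and of the Cxcr3 ligands *Cxcl11* was called at 118 against 78 (1.18) while *Cxcl9* (0.02) and *Cxcl10* (−0.12) were not. The remaining genes called higher were *Gbp5* (1.81), *Gbp2b* (1.53), *Phf11b* (1.91), *Phf11d* (1.46), *Trim34a* (1.68), *Trim25* (1.04), *Slfn1* (1.60), *Slfn2* (1.14), *Slfn8* (1.40), *Sp100* (1.30), *Ifi204* (1.06) and *Herc6* (1.00), together with the relatives of the members named before. On total counts 8 of the list were called higher and 2 lower, against 3.47% and 25.0% of all genes, with a median of 0.24.

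In whole liver, fewer cells of a type and less RNA per cell cannot be told apart, and marker genes were therefore read beside the members. After TMM scaling 7.97% of all tested genes were called higher and 8.32% lower, and none of the 8 hepatocyte markers was called (median 0.03). All 10 Kupffer cell and macrophage markers were below 0 (median −0.40), and *Adgre1*, the macrophage marker F4/80, with 12 against 41 counts, and *Marco*, a scavenger receptor, with 139 against 447, were called lower. Of the 6 sinusoidal endothelial markers, *Lyve1* was called lower at 4 against 45 counts (median −0.49), and of the 6 stellate cell markers *Col1a1* was called lower (median −0.59). Of the 6 dendritic cell markers 3 were tested and 2 were called higher: *Siglech*, a marker of plasmacytoid dendritic cells, at 45 against 4 counts (3.89, 2.63 to 6.02), and *Itgax* at 23 against 8 (2.04). *Clec9a*, the other one tested, had 29 against 41 counts (0.09, and −0.50 on total counts) and was not called. Of the untested dendritic markers, *Ccr9* and *Xcr1* each had 0 KO and 2 WT counts, and *Flt3* had 1 in each library. The summed counts of the dendritic list were 98 (KO) and 58 (WT), of which *Siglech* alone gave 45 and 4. The Kupffer list summed to 1745 and 3642. Of the 10 lymphocyte markers 3 were tested, *Cd79a* was called higher at 12 against 4 counts, and *Cd3d* and *Cd3e* had 0 KO counts and 2 and 3 WT counts. The 3 tested neutrophil markers were not called, and *Ly6g* had 0 counts in both libraries. On total counts all 8 hepatocyte markers were below 0 (median −0.57) and 2 were called lower, *Cps1* (−1.23) and *Trf* (−1.47). On that scale 5 of the 10 Kupffer cell, 4 of the 6 endothelial and 4 of the 6 stellate cell markers were called lower. *Siglech* and *Itgax* were still called higher, and the call of *Cd79a* was lost. Over all genes on total counts, 25.0% were called lower and 3.47% higher. The part of these cell types in the members' values was not tested.

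The rows of 12 members overlap another gene with counts, 5 of them on the same strand, and whether the counts used strand is not given in the sources used here. *Igtp* overlaps *Irgm2* on the same strand, and *Irf9* overlaps *Rnf31*, which had 229 against 214 counts (0.69). *Irf7* overlaps *Phrf1* on the opposite strand, at 413 against 338 counts (0.88), and *Parp9* and *Dtx3l* overlap each other on opposite strands. *Ifi47* overlaps *Olfr56*, an olfactory receptor gene, on the same strand, and *Olfr56* had 14 against 0 counts. Of the words of 51 bases in the members' transcripts, 13 rows share none with another gene, while 8 rows share more than 10%. The 2 *Gbp6* rows share their words with each other and with *Gbp10*. Counting words found in any other gene, *Oas1a* shares 57.0%, *Ifit3* 50.8% and *Igtp* 12.1%. The partner that by itself holds more than 10% is *Oas1g* for *Oas1a*, *Ifit3b* for *Ifit3* and *Irgm2* for *Igtp*. Summing the rows that share gave a log2 fold change of 2.04 for *Gbp6* with *Gbp10* (176 against 64 counts), 1.14 for *Oas1a* with *Oas1g*, 1.48 for *Ifit3* with *Ifit3b* and 0.89 for *Igtp* with *Irgm2*. Of the sums, that of *Igtp* with *Irgm2* lay below the 2-fold limit that *Igtp* alone had passed.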

How the data were processed

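Poly(A) RNA from the liver of 1 KO and 1 WT library was sequenced on Illumina HiSeq instruments. The authors deposited raw read counts per gene and the FPKM they computed from them, which scale with total counts. Per the submitters' processing notes, HISAT2 2.0.4, StringTie and edgeR were used with build hg38, although the identifiers and loci are those of mouse. The counting program and annotation are not given in the sources used here. Of the identifiers, 34267 are in GENCODE M21 (GRCm38), 80.8% of them with the same coordinates.

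The 13561 genes with 10 or more counts in the libraries together were scaled by TMM (factors 0.812 for KO and 1.23 for WT). Log2 fold changes used a prior count of 0.5, and each KO count was set against its expected share by an exact binomial test (two-sided), adjusted by Benjamini-Hochberg. No spread can be estimated from 1 library a group, so edgeR's quasi-likelihood test, DESeq2's test and limma were not used. Intervals are exact 95% binomial intervals, and a count of 0 was given a limit of 3 counts. The test was run first on simulated counts that held counting error only, so that run says nothing about variation between mice. Named genes are all members, and of the other lists every called gene, all receptors, JAKs and STATs, and otherwise the 3 most abundant. *Irf8*, *Mavs*, *Tbk1*, *Myd88*, *Oas1b* to *Oas3*, *Ifit3b*, *Gbp8*, *Gbp9*, *Irgm2*, *Cxcl9*, *Cxcl10*, *Phrf1* and *Rnf31* were added as pathway or family relatives after their values were seen. Of the pathway genes tested, 1 is counted in the totals and is not reported here by itself. The members and lists were chosen with earlier results of these data known. Alternatives were other scalings (total counts, with and without mitochondrial genes, DESeq2 size factors and upper quartile), other count minimums, a prior count of 5, FPKM with a pseudocount of 0.1, no test, and edgeR's exact test under biological coefficients of variation set by hand (0.2 and 0.4). Tools were R 4.3.3, edgeR 4.0.16, DESeq2 1.42.0, Python 3.11.15, pandas 2.3.3, numpy 2.4.6, scipy 1.17.1 and matplotlib 3.10.9.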

Additional observations from a re-analysis of the deposited data

How the results depend on the processing

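No paired analysis was possible because KO and WT have 1 library each, and no replicate could be left out. The count of members called higher stayed at 18 with DESeq2 size factors, with upper quartile scaling and with a minimum of 1 count, and was 17 on total counts without mitochondrial genes, 17 with a prior count of 5, 16 with a minimum of 50 counts and 19 with a 2-fold limit and no test. It was 8 on total counts and 8 in FPKM, and all of these were among the 18. Members called lower numbered 2 on total counts. With edgeR's exact test under a biological coefficient of variation set to 0.2 the count called higher was 10, and with 0.4 it was 0 higher and 0 lower, where 7 members above 0 and 0 below had an unadjusted p under 0.05. The binomial test takes this variation as absent, and these data cannot estimate it. Under 0.4, 1 pathway gene and 0 of the other interferon-stimulated genes were called, where 4 of the latter, all above 0, had an unadjusted p under 0.05. The other interferon-stimulated genes numbered 10 called on total counts, 7 with 0.2 and 7 in FPKM. The median of the type I members was 0.47 on total counts and 0.47 in FPKM, and that of the GTPases 0.29 and 0.28, where the median of all genes was −0.60 and −0.54. Over all genes, total counts gave 471 higher and 3397 lower calls against 1081 and 1128 with TMM, 0.2 gave 488 and 444, 0.4 gave 59 and 58, and FPKM gave 405 and 2934.

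Of the members, 7 changed sign with the scaling, and none of them was called. On total counts *Cmpk2* was −0.13, *Dtx3l* −0.58, *Ifi35* −0.32, *Ifi47* −0.33, *Parp9* −0.14, *Trim30a* −0.0091 and *Zbp1* −0.48. In FPKM they were −0.12, −0.54, −0.32, −0.31, −0.14, −0.0077 and −0.47 in the same order, and on total counts without mitochondrial genes *Dtx3l* was −0.063. As an alternative chosen after seeing the data, leaving out the 8 rows that share over 10% of their words gave 14 called higher of 30.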
